A study of Mus musculus with 36 samples.

Results

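The β-hydroxybutyryl, acetyl and methyl marks of histones were followed at 5 chromosomal windows chosen for genes of Wnt signalling and the intestinal crypt stem cell. The windows were drawn on mouse genome build mm9 under the names Lgr5, Axin2, Sox9, Myc and Tcf7l2, and every peak that overlapped a window by 1 bp or more was taken. They span 474 kb in all and held 697 of the 590372 peaks in 32 peak lists. Of these, 434 peaks lay in the Tcf7l2 window (212 kb), 118 in the window named Lgr5 (158 kb), 94 in the Axin2 window (51 kb), 28 in the Sox9 window (27 kb) and 23 in the Myc window (26 kb). The lists come from chromatin immunoprecipitation and sequencing of crypts of the mouse small intestine, with 8 marks mapped in each of 4 pools. Fed pools 1 and 4 came from animals that ate freely, and fasted pools 2 and 5 from animals kept without food, but with water, for 24 h. Both groups were wild-type by label, 6 to 12 weeks old and of both sexes, with 4 animals to a pool, and all crypts were isolated in 100 nM trichostatin A, an inhibitor of histone deacetylases. The protocol names 2 strains, C57BL/6J and Lgr5EGFP-IRES-CreERT2/+, a knock-in of a reporter and an inducible Cre at Lgr5, without saying which gave the pools for this assay, so an altered Lgr5 allele in them cannot be told from the labels. Whole crypts hold stem cells, progenitors, Paneth cells and other lineages, so a mark on fewer cells and less of the mark per cell cannot be told apart.

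Wnt ligands from Paneth cells and the stroma stabilise β-catenin in cells at the crypt base, where it joins DNA-bound TCF/LEF factors and turns on target genes. Lgr5 is a receptor for R-spondins, which strengthen the Wnt signal, and it is the classical marker of the cycling stem cell. Axin2 is a scaffold of the complex that destroys β-catenin and is itself a Wnt target, so that it serves as negative feedback and as a reporter of the pathway. Tcf7l2 encodes TCF4, the TCF factor on which the intestinal stem cell depends. Myc and Sox9 are targets of that factor: Myc drives growth and proliferation, and Sox9 is a transcription factor of stem, progenitor and Paneth cells. H3K9bhb and H4K12bhb are lysine β-hydroxybutyrylations, made from the ketone body that rises in fasting. H3K4me3 is typical of promoters, H3K4me1 of enhancers and H3K27ac of both when they are active. H3K79me2 spreads over transcribed genes, H3K27me3 over genes silenced by Polycomb, and H3K9me3 over heterochromatin.

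The name of the chromosome 10 window went against the data. Promoter starts in the RefSeq gene table, which is on another build, were slid along the H3K4me3 peaks of the fasted lists in steps of 500 bp over 1.5 Mb to each side. At the best shift 27 of 63 starts fell in a peak, against 10 at the best shift elsewhere, and Lgr5 then lay outside the window and inside a window of the same length 1 Mb to its left. The spacing of single peaks gave the same position. The pair of highest-scoring H3K4me3 peaks of fasted pool 5 in the named window lay 107662 bp apart, and the RefSeq starts of Kcnmb4 and Cnot2 lie 107013 bp apart. Kcnmb4 encodes an accessory subunit of a potassium channel and Cnot2 a subunit of the CCR4-NOT complex, which removes poly(A) tails. The H3K4me3 peak at chr10:115020648-115025718 lay 995192 bp from the second of that pair, and in RefSeq the start of Lgr5 lies 992756 bp from that of Cnot2. The named window is therefore called the chromosome 10 window here, and values for Lgr5 are given for chr10:114877000-115035000, called the Lgr5 window, which held 33 peaks in 11 lists and was chosen after its peaks were seen. The same slide placed Axin2 (26 of 59 starts against 13), Sox9 (12 of 36 against 6) and Tcf7l2 (21 of 61 against 10) inside their windows, and it did not decide for Myc (3 of 10 against 2).

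Promoter sequences of Axin2 and Tcf7l2, the members with an entry in the RefSeq promoter table, are shown because the H3K4me3 regions of the 5 windows are described below. They are the 250 bases before the start on the plus strand of GRCm38.p6, at chr11:108920099-108920348 for Axin2 and chr19:55741560-55741809 for the first start of Tcf7l2, and these positions cannot be set beside the mm9 positions of the peaks. Capitals mark CG dinucleotides.
Axin2: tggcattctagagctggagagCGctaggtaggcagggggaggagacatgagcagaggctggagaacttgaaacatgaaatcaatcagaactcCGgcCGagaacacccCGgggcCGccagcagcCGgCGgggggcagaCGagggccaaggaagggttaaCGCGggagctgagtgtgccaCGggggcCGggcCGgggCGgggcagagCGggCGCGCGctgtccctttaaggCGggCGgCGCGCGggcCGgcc
Tcf7l2: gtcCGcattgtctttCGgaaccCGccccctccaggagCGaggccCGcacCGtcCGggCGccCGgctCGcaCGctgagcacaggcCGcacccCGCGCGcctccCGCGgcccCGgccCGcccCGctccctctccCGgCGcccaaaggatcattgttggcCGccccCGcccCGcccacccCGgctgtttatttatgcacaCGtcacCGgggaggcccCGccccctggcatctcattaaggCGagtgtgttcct
The Axin2 sequence is 69.2% G or C with 24 CG dinucleotides, and the Tcf7l2 sequence 72.8% with 30, against medians of 52.4% and 6 over all 32851 promoters in the table. Their CG counts exceeded those of 88.0% and 94.1% of promoters. A second RefSeq start of Tcf7l2, 153511 bp further along, has 40.8% G or C and 7 CG dinucleotides. The TCF/LEF letters CTTTGAT, or ATCAAAG on the other strand, were in none of these 3 promoters when the 250 bases before and 50 after the start were searched, and 3.73% of all promoters hold them. A match is a description, and its lack says only that the letters are not in this stretch.

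The authors called each list on its own, with the input of its pool as the control, and the read depth is unknown. Some lists are short: H3K4me1 and H3K79me2 of fed pool 1 hold 309 and 571 peaks, H3K4me3 of the fed pools 3430 and 295, and H3K9me3 of fasted pool 5 holds 4376 against 59 to 521 in the other pools. The file names carry a number, 10 for fed pool 1 and fasted pool 2 (set 10) and 11 for fed pool 4 and fasted pool 5 (set 11). A peak score is the authors' caller value, −10 times the log10 of p with a lowest value of 50. It is used here for a percentile, the percent of peaks in the same list with a lower score.

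More of the 5 windows was covered by H3K9bhb, H4K12bhb, H3K27ac and H3K4me3 peaks in fasted than in fed crypts. H3K9bhb covered 8.70% and 9.02% of the 474 kb in fed pools 1 and 4 and 23.1% and 23.6% in fasted pools 2 and 5, means of 8.86% ± 0.222 and 23.3% ± 0.333 (SD, n = 2 each). Both fasted pools lay far above both fed pools, and the totals of the pools of a condition nearly coincided. The places of the peaks agreed less. In the Tcf7l2 window the fed pools shared 12.7 of a joint 55.9 kb of H3K9bhb, and the fasted pools 59.2 of 100 kb. In the Axin2 window the fed pools shared 2.34 of 7.63 kb, and in the chromosome 10, Sox9 and Myc windows 0 kb. Fed pool 1 had no H3K9bhb peak at Sox9 and Myc, so the 0 kb there says nothing about place. H3K27ac covered 12.7% and 3.84% of them in fed against 28.2% and 31.9% in fasted pools, means of 8.25% ± 6.24 and 30.1% ± 2.63 (SD, n = 2 each). H4K12bhb covered 15.0% and 9.68% against 27.7% and 20.8%, means of 12.3% ± 3.75 and 24.3% ± 4.90. Here too the fasted pools were the higher, with a wider spread between pools of a condition than for H3K9bhb. H3K4me3 covered 0.535% and 0% in fed against 8.10% and 9.70% in fasted pools. H3K27me3 covered 0.522% and 0.538% against 1.58% and 2.20%, all of it in the chromosome 10 window. For each of these 5 marks the conditions did not overlap, and the two-sided exact permutation test gave p = 0.333, the smallest that 2 pools against 2 allow, or 0.533 after Benjamini-Hochberg adjustment over the 8 marks. Within set 10 the fasted pool exceeded the fed pool by 14.4 points for H3K9bhb, 12.8 for H4K12bhb and 15.6 for H3K27ac, and within set 11 by 14.6, 11.1 and 28.1 points. With equal numbers of top-scoring peaks the H3K9bhb difference of means was 9.72 points in place of 14.5. It was 10.0 in place of 12.0 for H4K12bhb, 13.2 in place of 21.8 for H3K27ac and 3.32 in place of 8.63 for H3K4me3. The Tcf7l2 window held most of the H3K9bhb length, 35.7 of 41.3 kb in fed pool 1 and 32.9 of 42.7 kb in fed pool 4. It held 80.0 of 109 kb in fasted pool 2 and 79.5 of 112 kb in fasted pool 5. Without the chromosome 10 window the H3K9bhb difference was 20.6 points.

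For H3K4me1 and H3K79me2 the conditions overlapped, and the pools of set 11 were the high ones. H3K4me1 covered 0% and 28.6% in fed pools 1 and 4 and 11.6% and 30.9% in fasted pools 2 and 5. H3K79me2 covered 0.235% and 39.3% against 7.50% and 43.5%. Fed pool 4 thus lay above fasted pool 2 for both marks. Within set 10 the fasted pool exceeded the fed pool by 11.6 points for H3K4me1 and 7.27 for H3K79me2, and within set 11 by 2.26 and 4.18 points. Without fed pool 1, which leaves 1 pool of set 10 and 2 of set 11, the fasted mean was lower than the fed value, by a difference of -7.39 points for H3K4me1 and -13.8 points for H3K79me2. No list held an H3K9me3 peak in any of the 5 windows.

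The higher fasted coverage by H3K9bhb went with longer fasted lists. The covered length in the windows was 0.138% and 0.193% of the covered length of the whole H3K9bhb list in fed pools 1 and 4, and 0.132% and 0.130% in fasted pools 2 and 5. On this scale both fasted pools were lower than both fed pools. For H4K12bhb the shares were 0.130% and 0.145% against 0.191% and 0.243%, and for H3K27ac 0.123% and 0.0830% against 0.135% and 0.139%. On either scale, then, the fasted pools were the higher for H4K12bhb and H3K27ac, whereas the direction for H3K9bhb depended on the scale. For H3K27me3 the shares were also lower in the fasted pools, by a difference of means of -0.0240.

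**Figure D1:**
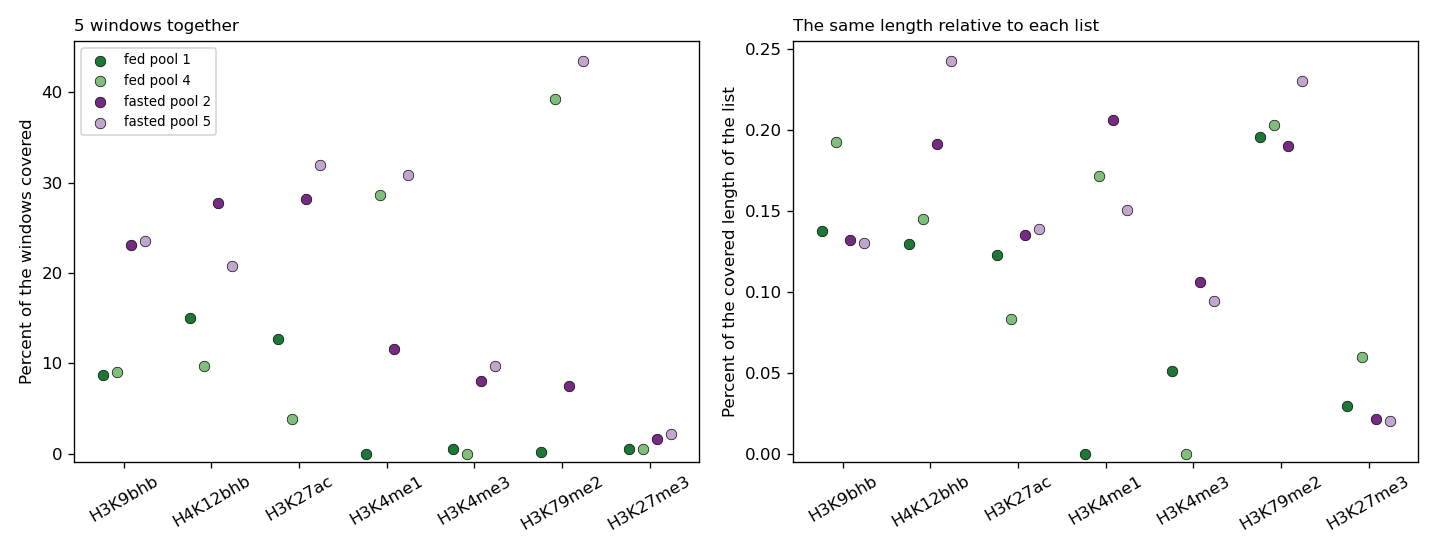
Coverage of the 5 windows by peaks of 7 marks in each pool. The left panel gives the percent of the 474 kb covered and the right panel the same covered length as a percent of the covered length of the whole list, with 1 point per pool; H3K9bhb is at 23.1% and 23.6% in the fasted pools on the left and at 0.132% and 0.130%, below both fed pools, on the right.

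Window by window, the marks fell into the same 2 patterns. Of the 40 pairs of a window and a mark, 31 held a peak. In 19 of the 31 both fasted pools were covered more than both fed pools, the reverse occurred in 0, and 12 overlapped. Over all 100 kb bins of the genome with a peak of the mark, both fasted pools were covered more in 45.5% and both fed pools in 0.596%. By mark, both fasted pools were above both fed pools in 5 of 5 windows for H3K9bhb (76.4% of bins), in 5 of 5 for H3K27ac (83% of bins), in 5 of 5 for H3K4me3 (78.8% of bins) in 3 of 5 for H4K12bhb (22.5% of bins) and in the 1 window with H3K27me3 (65.7% of bins). They were in 0 of 5 for H3K4me1 (3.24% of bins) and for H3K79me2 (0.72% of bins). The 5 include the chromosome 10 window and not the Lgr5 window. In the Lgr5 window H3K9bhb covered 0% in all pools, and H3K27ac 1.92% in fasted pool 5 and 0% in the other pools. Neither mark separated the conditions there, whereas H4K12bhb, H3K4me3 and H3K27me3 covered more of the Lgr5 window in both fasted pools than in both fed pools. Since most bins of the genome went the same way for H3K9bhb, H3K27ac and H3K4me3, the counts for these marks are not particular to the Wnt loci. No single pair could pass a test, with an exact permutation p of 0.333 at best and 0.702 after adjustment over the 40 pairs.

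**Figure D2:**
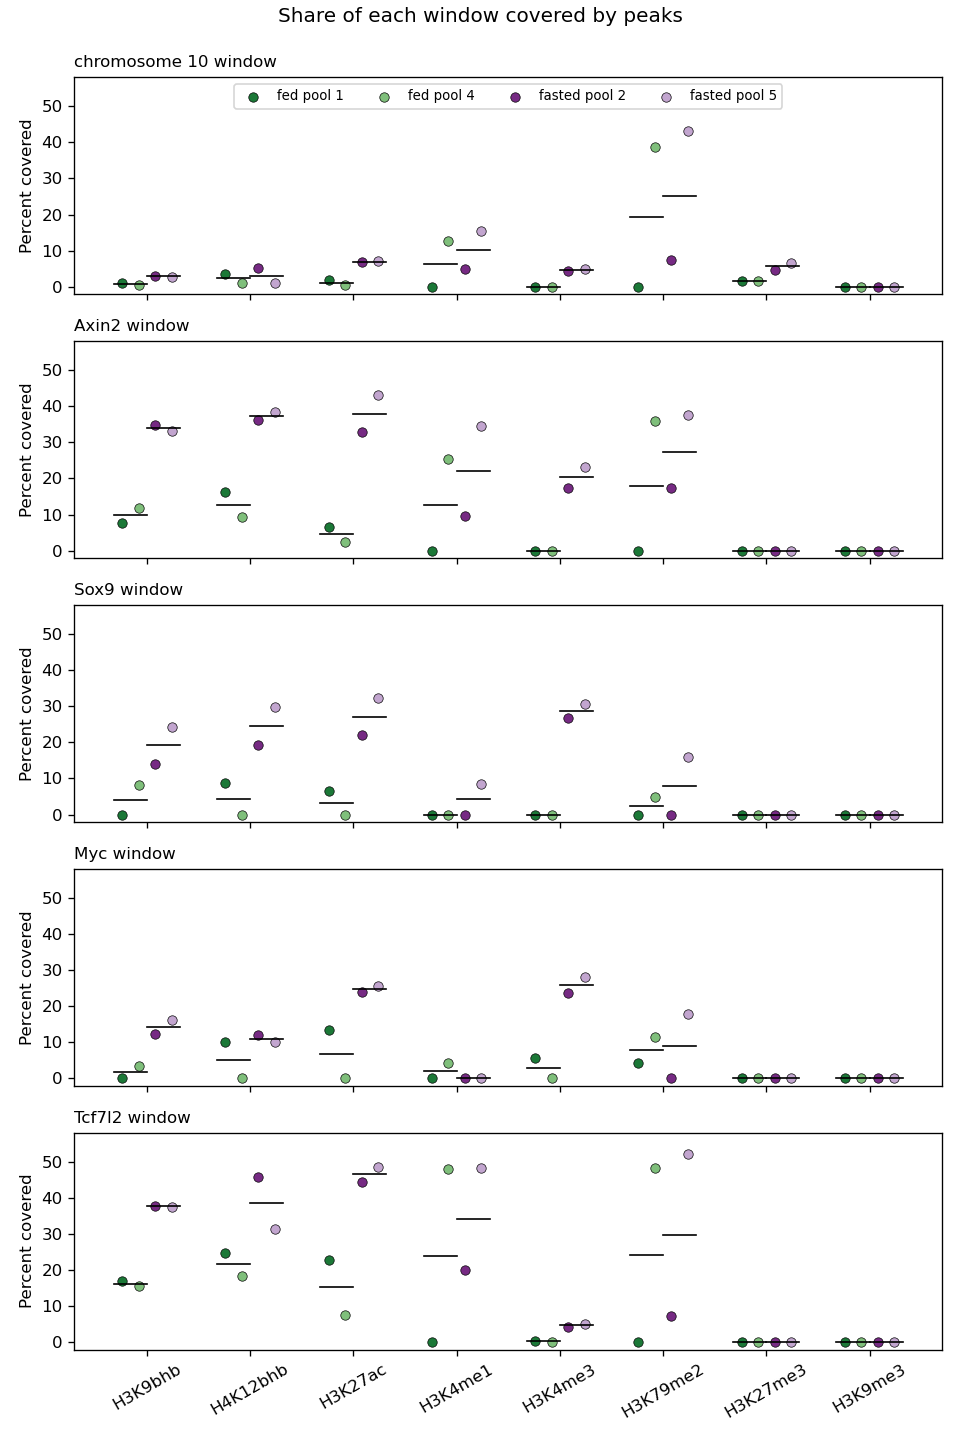
Percent of each window covered by peaks of each mark, with 1 point per pool and a horizontal line at the mean of the 2 pools of a condition. The purple fasted points sit above the green fed points for H3K9bhb, H3K27ac and H3K4me3 in all 5 windows, while for H3K4me1 and H3K79me2 the points of fed pool 4 and fasted pool 5 are the high ones in most windows.

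Axin2, the feedback scaffold, was covered more in the fasted pools by both β-hydroxybutyryl marks and by H3K27ac. The fasted peaks lay over its promoter and on both sides of it. H3K9bhb covered 7.77% and 11.8% of the Axin2 window in fed pools 1 and 4 and 34.8% and 33.2% in fasted pools 2 and 5. H4K12bhb covered 16.1% and 9.42% against 36.0% and 38.4%, and H3K27ac 6.64% and 2.34% against 32.7% and 42.9%. For all 3 marks both fasted pools stood well above both fed pools. The highest-scoring H3K9bhb peak was not the same one in each pool. It stood at the 22.9th percentile of its list in fed pool 1 (8.04 to 9.50 kb from the left end of the window), the 90.1st in fed pool 4 (10.7 to 12.9 kb), the 93.4th in fasted pool 2 (across the left end) and the 92.0th in fasted pool 5 (10.5 to 14.6 kb). The window held 7 merged H3K9bhb regions, made by joining the peaks of the 4 pools where they overlapped. Of these, 3 were called in all 4 pools and 2 in both fasted and neither fed pool, at chr11:108789185-108794000 and chr11:108797200-108800133. H3K27ac likewise had 2 such fasted-only regions, at chr11:108791936-108794180 and chr11:108794395-108799184. The first overlapped the first of the H3K9bhb regions, and the second overlapped the second. Over the 5 windows 6 of 41 merged H3K9bhb regions and 8 of 29 merged H3K27ac regions were fasted-only, beside 18.8% and 19.3% in the whole genome. H4K12bhb had 5 fasted-only and 0 fed-only among 42 regions, beside 5.5% and 1.78% in the genome. H3K79me2 covered 35.8% of the window in fed pool 4, 37.5% in fasted pool 5, 17.3% in fasted pool 2 and 0% in fed pool 1, and none of it lay left of the promoter.

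Sox9 and Myc, the targets, carried compact blocks of marks at their promoters and little else. H3K9bhb covered 0% and 8.24% of the Sox9 window in fed pools 1 and 4 and 13.9% and 24.4% in fasted pools 2 and 5. H3K27ac covered 6.43% and 0% against 21.9% and 32.2%, and H4K12bhb 8.62% and 0% against 19.2% and 29.6%. One fed pool was thus without a peak for each mark, pool 1 for H3K9bhb and pool 4 for H3K27ac and H4K12bhb. In the Myc window H3K9bhb covered 0% and 3.56% in fed against 12.3% and 16.2% in fasted pools, and H3K27ac 13.4% and 0% against 24.0% and 25.6%. H4K12bhb at Myc was the exception, with 10.2% in fed pool 1, 0% in fed pool 4, 11.9% in fasted pool 2 and 10.1% in fasted pool 5, so the conditions overlapped. In fasted pool 5 the H3K27ac and H3K4me3 peaks of both genes had a score of 3100, a value shared by 1282 H3K27ac and 437 H3K4me3 peaks of that pool, so their order within the list is not resolved. Neither window held a fasted-only or fed-only region of H3K9bhb or H3K27ac. The widest region of each mark, over the promoter block, had a peak in at least 1 fed pool. The smaller regions were each called in 1 fasted pool alone. The only H3K27ac peak away from the promoter of Myc lay 3.3 to 4.4 kb from the left end of its window, in fasted pool 2.

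**Figure D3:**
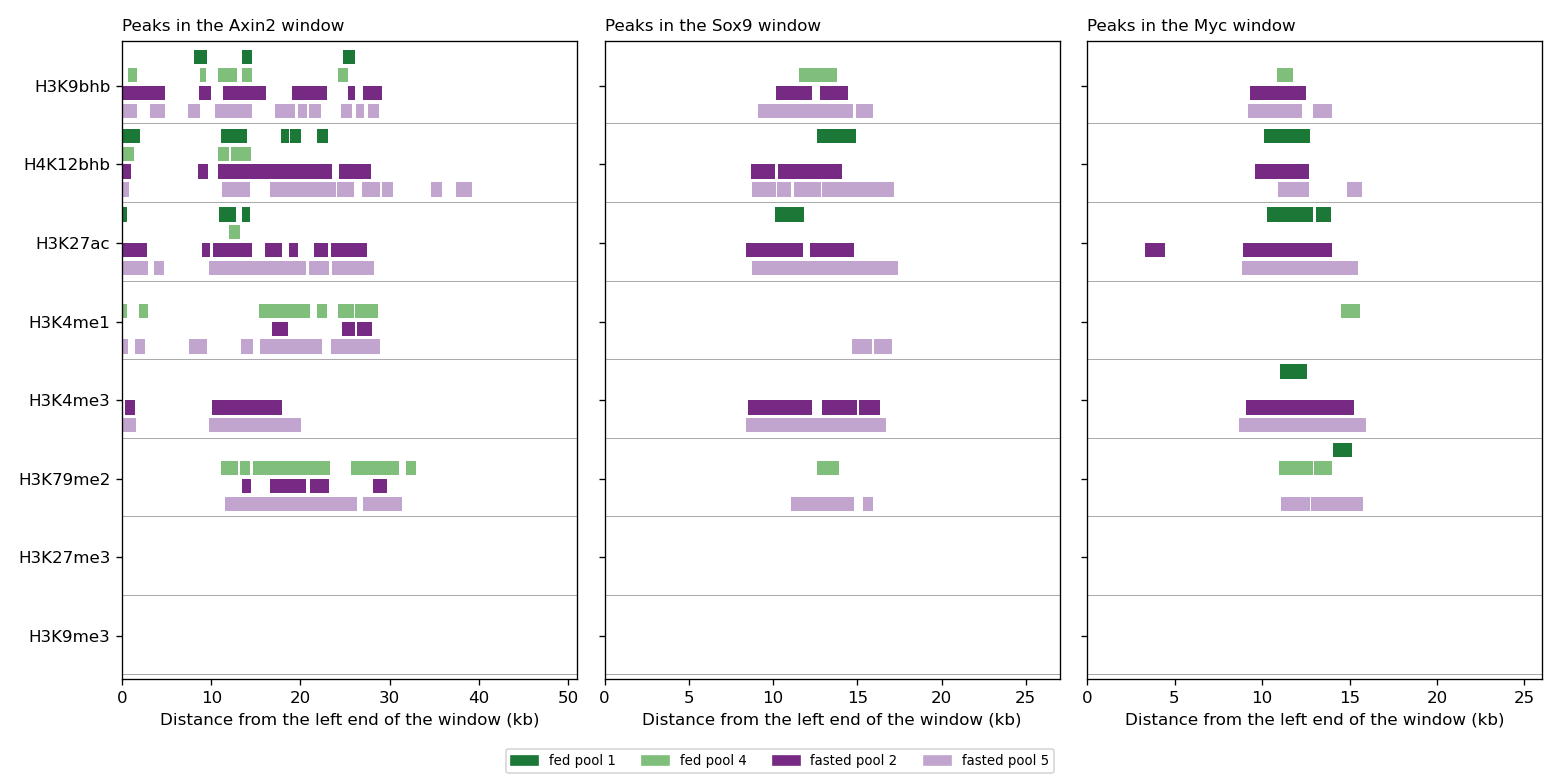
Peaks of the 8 marks in the Axin2, Sox9 and Myc windows, with 1 row per pool and bars drawn to scale from the left end of each window in kb. The marks of Sox9 and Myc form 1 block at 8 to 18 kb, apart from an H3K27ac peak of fasted pool 2 at the left of Myc, whereas at Axin2 the fasted H3K9bhb and H3K27ac peaks run on to about 29 kb; the H3K27me3 and H3K9me3 rows are empty.

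The promoter of each gene was taken as the merged H3K4me3 region with the highest score in a fasted list. These regions were chr11:108780741-108791043 at Axin2 (10303 bp), chr11:112641406-112649697 at Sox9 (8292 bp), chr15:61814681-61821946 at Myc (7266 bp), chr19:55814777-55821505 at Tcf7l2 (6729 bp) and chr10:116016074-116020646 in the chromosome 10 window (4573 bp). The H3K4me3 peaks of Axin2, Sox9, Myc and Tcf7l2 were among the wide ones of their lists, most clearly in fasted pool 5. In fasted pool 5 the peak at Axin2 was wider than 99.6% of the list, that at Sox9 than 98.9%, at Myc than 98.2% and at Tcf7l2 than 97.5%, against 88.8% in the chromosome 10 window. In fasted pool 2 the corresponding values for the highest-scoring peak were 96.5%, 86.0%, 94.2%, 96.5% and 89.8%, so the order was not the same in both pools. Sox9 lay below the chromosome 10 window there. The peak assigned to Lgr5 was wider than 92.4% of the list in fasted pool 5 and than 48.4% in fasted pool 2. Each peak was picked as the highest-scoring in its window, so the widths are a description and carry no test. Of the 5 promoters, 5 had an H3K4me3 peak in each fasted pool, 2 in fed pool 1 and 0 in fed pool 4. The choice of these regions required a peak in a fasted list and set no condition on the fed lists. This count is therefore partly built in and does not compare the conditions. Of all 12 merged H3K4me3 regions in the windows 8 were fasted-only, beside 47.1% in the genome. H3K9bhb was called at 3 and 4 promoters in fed pools 1 and 4 and at 5 in each fasted pool. H3K27ac was called at 5 and 3 in fed against 5 and 5 in fasted pools, and H4K12bhb at 5 and 2 against 5 and 5.

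Coverage within these promoter regions was higher in both fasted pools than in both fed pools at 5 of 5 for H3K9bhb, where 61.7% of all H3K4me3 regions with an H3K9bhb peak did the same. The count was 5 of 5 for H3K27ac (77% of regions) and 3 of 5 for H4K12bhb (22.9% of regions), at Axin2, Sox9 and Tcf7l2. The 5 include the region of the chromosome 10 window, which the spacing assigns to Cnot2 and not to Lgr5. At the region assigned to Lgr5, H3K9bhb covered 0% in all pools. H3K27ac covered 59.9% of it in fasted pool 5 and 0% in the other pools, so neither mark separated the conditions there. At Sox9, H3K9bhb covered 0% and 26.8% of the promoter region in fed against 45.4% and 79.3% in fasted pools. At Myc it covered 0% and 12.7% against 44.2% and 57.9%, and at Axin2 10.6% and 31.9% against 58.1% and 64.9%. The Tcf7l2 promoter stood higher than the others already in the fed pools, with H3K9bhb over 83.5% and 48.8% of it, against 100% and 96.5% in the fasted pools. The 100% of fasted pool 2 came from 1 peak of 14934 bp with a score of 54.81, at the 8.87th percentile of its list. With a score of 100 or more, H3K9bhb covered 83.5% and 48.8% of the Tcf7l2 promoter in the fed against 0% and 96.5% in the fasted pools. The conditions then overlapped there, and the count for H3K9bhb was 4 of 5 promoters.

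Tcf7l2, the gene of the TCF factor itself, had the largest share of its window covered by H3K9bhb and H3K27ac in every pool, and the best of its peaks ranked high within their lists. The highest-scoring H3K9bhb peak, a different one in most pools, was number 455 of 19555 in fed pool 1, 68 of 13923 in fed pool 4, 774 of 38934 in fasted pool 2 and 331 of 37640 in fasted pool 5. The corresponding percentiles were 97.7, 99.5, 98.0 and 99.1. For H3K27ac they were 98.8, 97.7, 99.6 and 96.0, the last for a peak at the shared score of 3100, and for H4K12bhb 97.9, 99.4, 90.7 and 98.6. These are the best of 13 to 29 peaks, and the median peak of the window ranked lower in every pool. Its percentile was 51.4, 53.4, 69.9 and 75.6 for H3K9bhb and 52.9, 46.2, 30.2 and 43.3 for H3K27ac. For H4K12bhb it was 47.4, 68.5, 33.0 and 50.0. H3K9bhb covered 16.9% and 15.5% of the window in fed pools 1 and 4 and 37.7% and 37.5% in fasted pools 2 and 5. H3K27ac covered 22.8% and 7.70% against 44.5% and 48.5%, and H4K12bhb 24.7% and 18.5% against 45.7% and 31.5%. The conditions did not overlap for any of the 3 marks. Relative to the length of its list, H3K9bhb at Tcf7l2 was lower in the fasted pools, by a difference of means of -0.0394 percentage points. H3K9bhb, H4K12bhb, H3K27ac and H3K4me1 ended within 149.2 kb of the left end of the window in all pools, and H3K79me2 reached 175.1 kb. The fed lists held 1 H3K4me3 peak, at the promoter in pool 1, and each fasted pool had 3 H3K4me3 peaks besides that at the promoter.

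One stretch of Tcf7l2 held H3K9bhb peaks in the fed pools alone. In this stretch of 22859 bp at chr19:55920572-55943430, H3K9bhb peaks covered 47.8% and 73.0% in fed pools 1 and 4 and 0% in both fasted pools. In the rest of the window the order was the opposite, with 13.1% and 8.58% in the fed against 42.3% and 42.0% in the fasted pools. The stretch was found as the gap between fasted peaks, among 20 such gaps, that held most fed H3K9bhb, so its values are a description and carry no test. Over the same stretch H3K27ac covered 71.1% and 28.0% in the fed against 99.5% and 100% in the fasted pools. In fasted pool 2 that coverage came mostly from 1 peak of 27409 bp with a score of 76.52, at the 25.6th percentile of its list. With a score of 100 or more, H3K27ac covered 63.2% and 19.1% in the fed against 4.82% and 100% in the fasted pools, so that the conditions overlapped. H4K12bhb covered 90.7% and 80.2% against 100.0% and 89.1% with all peaks, and 90.7% and 70.4% against 100.0% and 70.7% with a score of 100 or more. H3K4me1 covered 0% and 97.6% against 53.8% and 98.7%. With all peaks, H3K9bhb was the one acyl mark without a peak there in the fasted pools. The highest-scoring H3K9bhb peak of fed pool 4 in the window, 6561 bp wide with a score of 486.78, lay inside the stretch.

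All 4 fed-only H3K9bhb regions of the 5 windows lay in this stretch, at chr19:55921898-55923867, chr19:55923897-55927868, chr19:55928129-55930153 and chr19:55934422-55940982. They were 4 of 41 merged H3K9bhb regions in the windows, or 9.76%, where 0.207% of all merged H3K9bhb regions were fed-only. Fed-only regions are rare and seldom lie together. The genome held 95 of them in 83 bins of 100 kb, 6 bins held 2 or more, and 4 was the most in any bin, reached in 2 bins. Both fasted pools had an H3K27ac peak over all 4 of the Tcf7l2 regions and over 45 of the 95. With a score of 100 or more the windows held 2 fed-only regions, and with merging across gaps of up to 1000 bp they held 1. These regions are neighbouring pieces of 1 stretch, so the 4 are not independent of each other. The Tcf7l2 window also held 4 fasted-only H3K9bhb regions, at chr19:55852480-55857542, chr19:55876079-55879610, chr19:55890100-55892532 and chr19:55907761-55908893. It held 4 fasted-only H3K27ac regions as well, at chr19:55839094-55843688, chr19:55848685-55850163, chr19:55853098-55855206 and chr19:55878734-55883260, and 0 fed-only ones, where 0.295% of all merged H3K27ac regions were fed-only. The first of the H3K9bhb regions overlapped the third of the H3K27ac regions, and the second of the H3K9bhb regions the fourth.

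**Figure D4:**
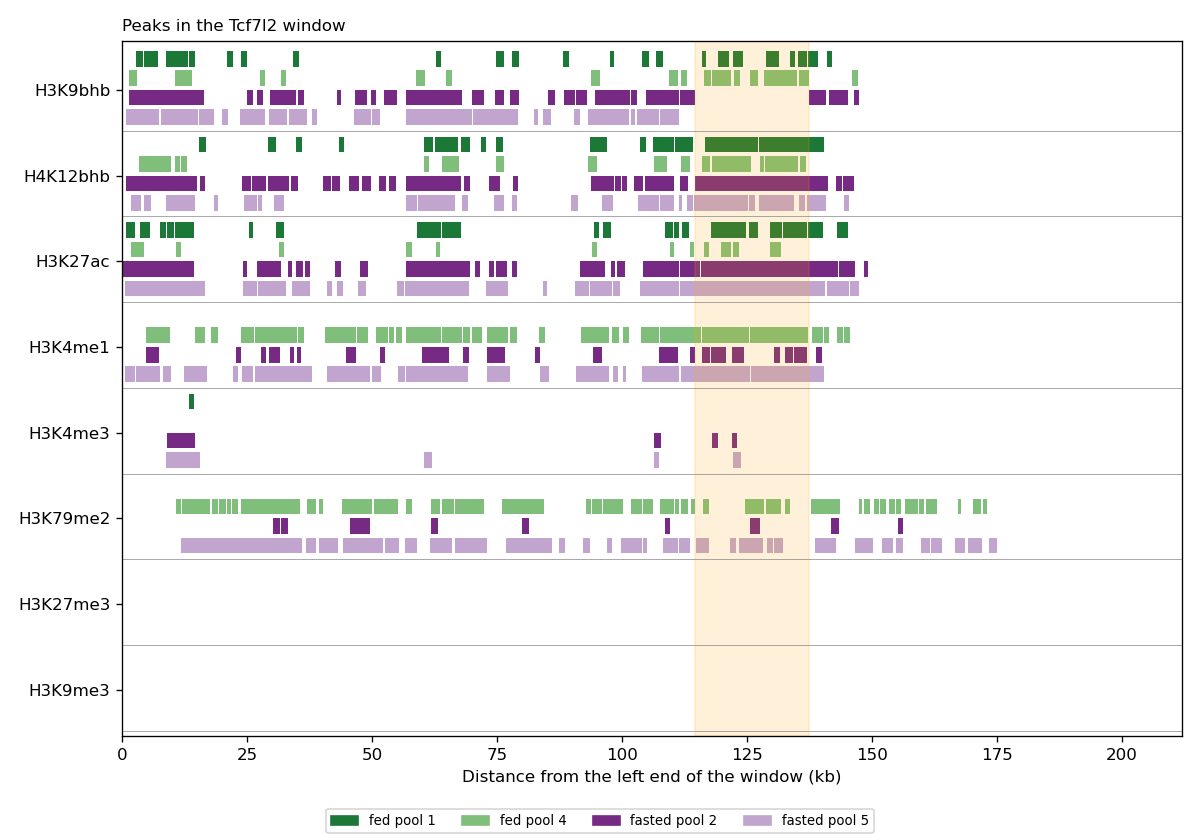
Peaks of the 8 marks in the Tcf7l2 window, with 1 row per pool and bars drawn to scale from the left end of the window in kb. The shaded stretch at 114.6 to 137.4 kb holds H3K9bhb peaks of the 2 fed pools and none of the fasted pools, while H4K12bhb and H3K27ac peaks of the fasted pools cover it.

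The Lgr5 window held 33 peaks, against 118 in the chromosome 10 window of the same length. No pool had an H3K9bhb peak in the Lgr5 window, and 0 of 158 kb was covered in both conditions. H4K12bhb had 1 peak in each fasted pool (995 and 1261 bp) and none in the fed pools, and H3K27ac had 1 peak of 3036 bp, in fasted pool 5, at the 62.2nd percentile of its list. H3K4me3 at the peak 5071 bp wide that the spacing assigns to the Lgr5 start was called in both fasted pools, at the 34.1st percentile in pool 2 and the 84.3rd in pool 5, and in neither fed pool. In fasted pool 5 H3K27ac lay over 59.9% of that H3K4me3 region, H3K4me1 over 52.4%, H4K12bhb over 24.9% and H3K79me2 over 16.1%, and in the other pools none of the 4 did. H3K4me1 had 7 peaks in the window, all in fasted pool 5, and H3K79me2 had 4 there and 1 in fed pool 4. H3K27me3, the Polycomb mark, covered 1.17% and 0% of the Lgr5 window in fed pools 1 and 4 and 3.39% and 9.51% in fasted pools 2 and 5. In the fasted pools it also lay over 18.7% and 56.2% of the H3K4me3 region. Because whole crypts were used, both marks on 1 allele and each mark in different cells cannot be told apart.

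The chromosome 10 window held the other H3K27me3 of the set. One block of 9681 bp at chr10:115904498-115914178 was called in all 4 pools. Peaks covered 25.6% and 26.3% of the block in the fed against 77.4% and 98.5% in the fasted pools, and fasted pool 5 had a further region of 915 bp beside it. The highest-scoring peaks of the block were at the 79.2nd, 84.1st, 96.9th and 97.5th percentiles of their lists. A fasted-only H3K4me3 region at chr10:115909650-115911776, at the place that the spacing assigns to Kcnmb4, lay inside it. The other H3K4me3 region of the pair, assigned to Cnot2, had no H3K27me3 and carried H3K9bhb over 12.3% and 0% in the fed against 43.8% and 45.2% in the fasted pools. H3K27ac covered 49.5% and 15.0% of it against 66.8% and 89.5%. The window had 2 fasted-only H3K27ac regions, at chr10:115972552-115975184 and chr10:115989720-115990962, and no fasted-only or fed-only H3K9bhb region. The Axin2, Sox9, Myc and Tcf7l2 windows held no H3K27me3 peak in any pool.

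**Figure D5:**
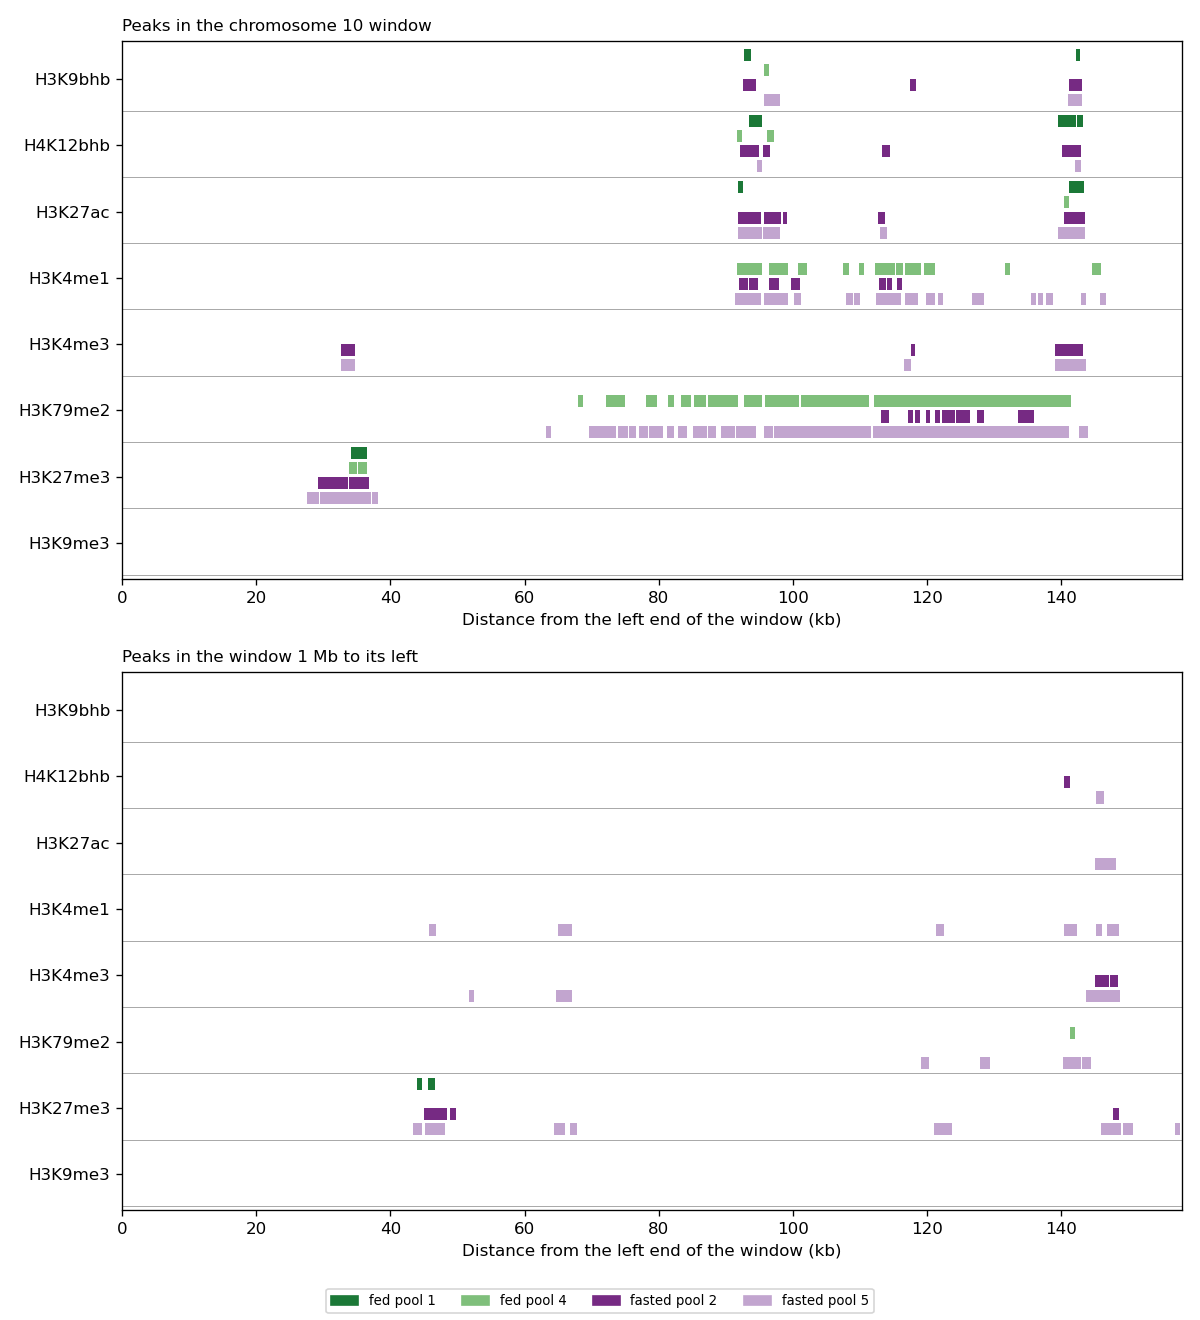
Peaks of the 8 marks in the chromosome 10 window (top) and in the window 1 Mb to its left, where the spacing of promoters places Lgr5 (bottom), with 1 row per pool and bars drawn to scale in kb. The lower panel has no H3K9bhb peak, and its H3K4me3 peak near 146 kb is in the fasted rows, with H3K27me3 over part of it.

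The length that the β-hydroxybutyryl marks shared with H3K27ac was higher in the fasted pools. Of the H3K9bhb length in the 5 windows, 49.0% and 28.9% lay in H3K27ac peaks of the same pool in fed pools 1 and 4, and 72.2% and 80.2% in fasted pools 2 and 5. Over the whole lists the shares were 60.8% and 40.3% against 74.0% and 75.5%, so the fed pools lay lower in the windows than in their lists. Of the H4K12bhb length, 53.8% and 22.5% lay in H3K27ac in the fed against 81.2% and 90.6% in the fasted pools, beside 57.2%, 36.7%, 84.3% and 93.2% over the lists. Among other pairs of marks, some separated the conditions and some did not. Of the H4K12bhb length, 25.4% and 53.2% lay in H3K9bhb in the fed against 61.6% and 58.9% in the fasted pools. Over the lists these shares were 35.7%, 40.1%, 71.4% and 81.5%. H3K4me3 peaks held 2.12% and 0% of the H3K9bhb length in the fed against 20.4% and 27.1% in the fasted pools. Over the lists these shares were 6.35%, 0.628%, 22.9% and 26.7%, so the conditions separated there as well. H3K4me3 peaks also held more of the H4K12bhb and H3K27ac length in both fasted pools, in the windows and over the lists. The list shares were 6.27%, 0.567%, 34.4% and 50.2% for H4K12bhb, and 6.78%, 0.597%, 28.9% and 35.5% for H3K27ac. H3K4me3 itself covered little in the fed pools. The next pairs overlapped in the windows. Of the H3K9bhb length, 43.8% and 57.1% lay in H4K12bhb peaks in fed pools 1 and 4, against 74.0% and 52.0% in fasted pools 2 and 5. Over the lists these shares were 65.5%, 57.1%, 59.3% and 38.6%. Of the H3K27ac length, 33.7% and 67.8% lay in H3K9bhb peaks against 59.1% and 59.1%. Over the lists they were 37.3%, 40.7%, 61.8% and 59.5%, where both fasted pools were the higher. The shares in H3K27ac move with its covered length, which was the lower in the fed pools, and the part of that in the difference was not tested.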

How the data were processed

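The deposited files are peak lists with a score for each peak, 1 list per library, for 32 of the 36 samples; the 4 inputs had no list and entered no comparison. Per the file names, the authors called peaks with MACS 1 without model building against the input of the same pool. Tools named in the submitters' processing notes are Bowtie 1.1.2, SAMtools 1.9, deepTools 1.5.11 and FastQC, with the mm9 build. Filters and the depth of each library are not given in the sources, so the precision that depth gives is unknown, and number and width of peaks move with depth and antibody yield. The score is −10 times the log10 of p, with a floor of 50, or 1e-05, and was used only within a list.

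Covered length counted the part of a peak inside a window. Peaks of a mark were merged across the 4 pools where they overlapped or touched. A merged region was called in a pool with 1 bp of overlap, and was fasted-only or fed-only when both pools of 1 condition and neither of the other called it. The comparison of pools used the exact permutation test, two-sided, which cannot go below 0.33 with 2 pools against 2, with Benjamini-Hochberg adjustment. The labels give each pool as a separate replicate of 4 animals. Intervals were handled in Python 3.11.15 with numpy 2.4.6 and pandas 2.3.3 and plotted with matplotlib 3.10.9. The functions passed 8 of 8 checks on simulated intervals, bedtools 2.31.1 included.

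The members and lists were chosen with earlier results of these data known. All 5 windows and 8 marks are reported, and within a window the named peaks are the highest-scoring ones and every fasted-only or fed-only H3K9bhb or H3K27ac region. Alternatives were equal numbers of top-scoring peaks, a score of 100 or more, windows shortened by 10 kb at each end, merging across gaps of 1000 bp, 50% of a region covered, each library left out, and each set of the file names. The share of the list, the chromosome 10 window left out or moved by 1 Mb, the Tcf7l2 stretch and the score of 100 or more at promoters and the stretch were chosen after seeing the data. Other Wnt genes were not analysed here, because the gene table used is on another build than mm9.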

Additional observations from a re-analysis of the deposited data

How the results depend on the processing

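Of 220 differences in percent covered recomputed under alternatives, 209 kept their direction, 9 reversed and 2 became 0. Of the 194 that kept their direction on the same scale, 25 changed in size by over 1.5 times. As a share of the covered length of the list, the fasted minus fed difference was -0.0342 for H3K9bhb, -0.0240 for H3K27me3 and -0.0394 for H3K9bhb at Tcf7l2. With equal numbers of top-scoring peaks H3K4me1 gave -2.12. With a score of 100 or more H3K9bhb on the Tcf7l2 promoter gave -17.9. With 1 library left out, H3K4me1 ranged from -7.39 to 21.2 and H3K79me2 from -13.8 to 25.3. H3K27me3 was 0 without the chromosome 10 window, and H3K9bhb in that window was 0 when it was moved 1 Mb to the left. Of 71 recomputed counts, 51 stayed within 1.5 times. Pairs with the fasted pools above were 19, and 29 within set 11. Pairs with the fed pools above were 0, but 1 within set 10, 2 within set 11, 2 as a share of the list and 0 to 1 with 1 library left out. Fasted-only H3K9bhb regions were 6, and 3 with equal numbers of peaks, 2 with gaps merged, 15 with 50% covered and 9 to 19 with 1 library left out. Fed-only H3K9bhb regions were 4, and 2 with a score of 100 or more, 1 with gaps merged and 4 to 6 with 1 library left out. Fasted-only H3K27ac regions were 8, and 4 with equal numbers, 4 with gaps merged, 14 with 50% covered and 8 to 24 with 1 library left out. The cause of these changes was not tested. No paired analysis was possible because the fed pools are numbered 1 and 4 and the fasted pools 2 and 5, so they share no number, and the differences within each set of the file names stand in its place. Peak lists carry no depth, so a missing peak does not show that a mark was absent.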

Other observations

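Some of the widest peaks in the Tcf7l2 window had low scores. The widest H4K12bhb peak of fasted pool 2 there, 26717 bp wide, was at the 75.5th percentile of its list, against the 25.6th and 8.87th for the widest H3K27ac and H3K9bhb peaks of that pool.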
